A study of Rattus norvegicus with 16 samples.

Results

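The expression of 10 genes of the circadian clock and its direct outputs was described in bulk RNA sequencing of rat hearts: Arntl (also named Bmal1), Npas2, Per1, Per2, Per3, Ciart, Nr1d1, Nfil3, Dbp and Tef. The members were taken by gene name. All 10 had a row among the 17085 genes of the expression tables, and all 10 were among the 11376 genes that passed a filter on low counts. They were selected on their log2 differences between these same groups, so their levels, differences and calls are given as descriptions.

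There were 16 libraries in 4 groups of 4. MI_stiff and MI_soft hearts underwent ligation of the left anterior descending coronary artery and received a stiff or a soft hydrogel, a water-swollen polymer network, injected into the heart muscle. MI hearts had the same ligation without hydrogel, and Sham hearts were surgical controls. Every library is labelled infarct zone, Sham included. The labels state no strain, age, time after surgery or hour of heart collection. One label writes MI/R, which commonly means infarction followed by reperfusion, and it remains unknown here if flow to the vessel was reopened. Nor is it stated that replicate libraries are separate animals, and the standard errors and p-values then cover the spread between these libraries, which may be technical.

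The circadian clock is a feedback loop of transcription that runs in nearly every cell, heart muscle cells among them. ARNTL pairs with CLOCK or its relative NPAS2 and binds E-box sequences to switch on the Per and Cry genes, Ciart, Nr1d1, Dbp and Tef, and the PER, CRY and CIART proteins then hold that activator back. NR1D1 represses Arntl, Npas2 and Nfil3 through the ROR element, at which ROR proteins activate, while DBP and TEF activate and NFIL3 represses genes with a D-box. The transcripts therefore cycle over the day in rodent hearts, with Arntl, Npas2 and Nfil3 high when Dbp, Nr1d1 and the Per genes are low, and the reverse.

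The promoters of 4 members are shown because they hold the sequence motifs that the factors of this loop are known to bind. Each is the 250 bases before the annotated start of the gene in RefSeq's table for the GRCr8 assembly, written 5′ to 3′ on the strand of the gene. GRCr8 is another build than the rn7 used for counting. Capitals mark matches on either strand to the E-box CACGTG, its variant CACGTT, the D-box TTANGTAA and the core TNGGTCA of the ROR element.
Ciart promoter, chr2:186112247-186112496, minus strand: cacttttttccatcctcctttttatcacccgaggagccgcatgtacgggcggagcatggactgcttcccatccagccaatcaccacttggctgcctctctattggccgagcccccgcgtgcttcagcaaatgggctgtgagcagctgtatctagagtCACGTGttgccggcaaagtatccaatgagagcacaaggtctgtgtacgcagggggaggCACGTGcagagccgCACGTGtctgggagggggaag
Per2 promoter, chr9:99496994-99497243, minus strand: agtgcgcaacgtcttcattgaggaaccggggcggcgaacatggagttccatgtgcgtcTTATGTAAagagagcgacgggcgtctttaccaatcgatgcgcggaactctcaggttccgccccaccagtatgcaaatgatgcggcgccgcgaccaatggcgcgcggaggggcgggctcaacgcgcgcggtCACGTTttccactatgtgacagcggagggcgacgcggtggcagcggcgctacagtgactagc
Tef promoter, chr7:115206577-115206826, plus strand: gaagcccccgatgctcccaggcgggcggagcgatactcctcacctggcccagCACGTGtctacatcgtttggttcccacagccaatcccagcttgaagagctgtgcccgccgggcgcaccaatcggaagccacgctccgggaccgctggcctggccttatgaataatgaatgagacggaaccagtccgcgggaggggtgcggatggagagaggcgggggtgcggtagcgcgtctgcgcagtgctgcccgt
Arntl promoter, chr1:176766078-176766327, plus strand: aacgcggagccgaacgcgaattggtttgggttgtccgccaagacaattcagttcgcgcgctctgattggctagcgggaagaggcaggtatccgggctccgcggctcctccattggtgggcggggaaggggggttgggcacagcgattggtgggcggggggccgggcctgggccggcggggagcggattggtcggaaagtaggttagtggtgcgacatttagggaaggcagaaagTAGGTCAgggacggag

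The Ciart promoter held 3 E-boxes, 93, 35 and 21 bases before the start. Of all 33469 rat promoter windows of this length, 17 (0.0508%) held 3 or more, and 5.59% held at least 1. Tef had a single E-box 198 bases before its start. The Per2 promoter held the variant CACGTT 62 bases before the start, a motif of 4.07% of all windows, and a D-box 192 bases before it, a motif of 2.04%. The Arntl promoter held the ROR element core 16 bases before the start, as 9.47% of all windows hold it. Nr1d1 has a pair of annotated starts, 1 with an E-box 191 bases before it and the other with CACGTT 174 bases before it. None of the 4 motifs lay in the windows of Npas2, Nfil3, Per1, Per3 or Dbp, which says only that these letters are not within 250 bases before those starts. All 10 members matched the table, 9 by current symbol and Arntl by its older symbol. A match is a description of the letters and shows no binding.

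Libraries held between 10940685 and 14456188 counts. Levels below are CPM, counts scaled to a common library total with TMM factors, listed in the order of library 1 to 4. Differences between groups are log2 values, each with its standard error (SE) from edgeR's quasi-likelihood fit, and a gene was called at a Benjamini-Hochberg adjusted p under 0.05 over all tested genes. MI 2, MI 3, MI 4 and MI_soft 4 had the fewest genes detected, 10470, 10958, 11283 and 11785, against 12019 to 12820 in the other libraries. MI 1 correlated most strongly with MI_soft 2 across genes (r = 0.9635), above its correlation with any MI library. MI 4 (r = 0.9101) and MI_stiff 1 (r = 0.9455) were also closest to MI_soft 2. Several results that turn on MI 1 or on the 4 libraries with the fewest genes are given with and without them.

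In MI and in MI_soft hearts Arntl, Npas2 and Nfil3 were called lower than in Sham hearts and Per1, Per2, Per3, Ciart, Dbp and Tef higher, with Nr1d1 also called higher in MI_soft. In MI_stiff the calls were Per1 and Per2, both higher. In MI against Sham 6 of the 10 genes were called higher and 3 lower, in MI_soft against Sham 7 higher and 3 lower, and in MI_stiff against Sham 2 higher and 0 lower. Of all tested genes, 20.2% were called higher and 16.4% lower in MI, 16.4% higher and 9.71% lower in MI_soft, and 12.7% higher and 8.44% lower in MI_stiff. The libraries did not overlap with Sham for 9 of the 10 genes in MI, for 10 in MI_soft and for 4 in MI_stiff, as for 38%, 40.9% and 38.4% of all tested genes. The median log2 difference of the 10 was 0.38 in MI_stiff, 2.13 in MI_soft and 1.26 in MI, against medians of 0.02, 0.01 and 0.06 over all tested genes. These comparisons share the 4 Sham libraries, and since they are also the comparisons in which the genes stood out, nothing is read from the counts.

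Arntl encodes the obligate partner of the activator. It had 54.3, 48.2, 11.8 and 40.6 CPM in MI_stiff, 5.15, 7.15, 6.48 and 2.26 CPM in MI_soft, 10.3, 12.1, 9.76 and 13.5 CPM in MI, and 49.8, 55.2, 52.8 and 48.3 CPM in Sham. All 8 libraries of MI_soft and MI lay below every Sham library, 3 MI_stiff libraries lay at or near the Sham range, and MI_stiff 3 lay inside the MI range. Relative to Sham, the log2 difference was −0.41 ± 0.36 in MI_stiff, −3.29 ± 0.40 in MI_soft and −2.17 ± 0.38 in MI (SE, n = 4 each). In linear terms Arntl was 9.76-fold lower in MI_soft and 4.52-fold lower in MI.

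Npas2, the relative of Clock that is abundant in heart and forebrain, had the same order of groups. It had 19.8, 26.3, 6.54 and 24.1 CPM in MI_stiff, 2.47, 1.75, 5.22 and 1.34 CPM in MI_soft, 10.3, 10.7, 14.1 and 9.57 CPM in MI, and 33.7, 33.4, 31.4 and 33.99 CPM in Sham. No ligated library reached the Sham range. MI_soft lay wholly below MI, and MI_stiff 3 lay between the MI_soft and MI ranges. The difference from Sham was −0.79 ± 0.38 in MI_stiff, which was not called, −3.60 ± 0.43 in MI_soft and −1.57 ± 0.39 in MI.

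**Figure D1:**
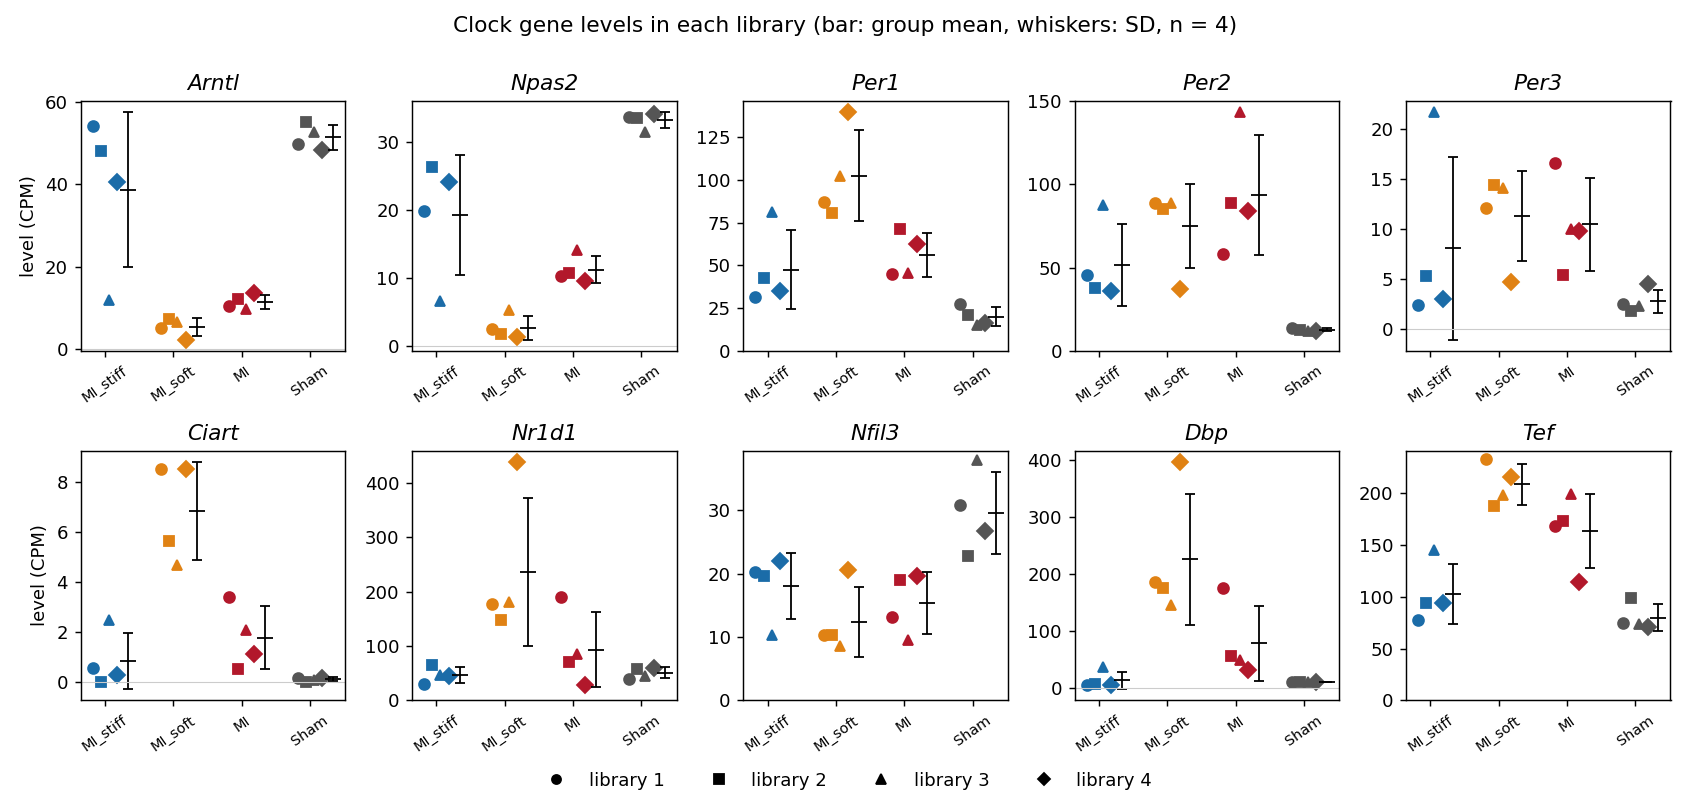
Level of each of the 10 clock genes in every library, in CPM on a linear axis that differs between panels. Groups run MI_stiff, MI_soft, MI, Sham from left to right, the marker shape gives the library number, and the bar with whiskers is the group mean with its SD (n = 4). MI_stiff 3, the triangle, lies apart from the other MI_stiff libraries in most panels: Arntl was 11.8 CPM there against 40.6 to 54.3 CPM in the other MI_stiff libraries.

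Of the Period genes, whose proteins enter the nucleus with CRY to repress the activator, Per1 and Per2 were called higher than Sham in all 3 ligated groups, and Per3 in MI_soft and MI. Per1, which also responds quickly to stress and glucocorticoid signals, had 31.4, 42.5, 81.5 and 34.99 CPM in MI_stiff, 87.2, 80.6, 102 and 140 CPM in MI_soft, 45.0, 71.2, 45.4 and 62.4 CPM in MI, and 27.4, 21.2, 15.2 and 16.4 CPM in Sham. All 12 ligated libraries were above all Sham libraries, and all MI_soft libraries were above all MI libraries. The log2 difference from Sham was 1.25 ± 0.30 in MI_stiff, 2.35 ± 0.31 in MI_soft and 1.48 ± 0.30 in MI.

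Per2, a core repressor, had 45.4, 37.6, 87.8 and 35.8 CPM in MI_stiff, 88.5, 85.1, 88.6 and 37.0 CPM in MI_soft, 58.2, 88.6, 143 and 84.0 CPM in MI, and 13.99, 12.8, 11.8 and 12.2 CPM in Sham. Every ligated library was above every Sham library, and the 3 ligated groups overlapped each other. Per2 was thus high even in the 3 MI_stiff libraries whose Arntl was near the Sham range. Relative to Sham it was 4.07-fold higher in MI_stiff, 5.89-fold in MI_soft and 7.36-fold in MI (log2 2.02 ± 0.34, 2.56 ± 0.35 and 2.88 ± 0.35).

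Per3, a Period protein with a lesser part in the core loop in mice, was lower in level and noisier. It had 2.37, 5.31, 21.7 and 2.96 CPM in MI_stiff, 12.1, 14.4, 14.1 and 4.68 CPM in MI_soft, 16.6, 5.36, 10.04 and 9.84 CPM in MI, and 2.49, 1.80, 2.25 and 4.44 CPM in Sham. MI_soft and MI lay above the Sham range, MI_soft 4 by a small margin. MI_stiff 1 and 4 lay inside the Sham range, MI_stiff 2 just above it and MI_stiff 3 far above it. The log2 differences from Sham were 1.55 ± 0.61 in MI_stiff, not called, 2.04 ± 0.62 in MI_soft and 1.93 ± 0.61 in MI. The MI_stiff difference was 0.36 without MI_stiff 3, and it was called without MI_stiff 1 (1.86) or with DESeq2 (1.54). The call in MI was lost without MI 1, the call in MI_soft without MI_soft 2, and both without any 1 of Sham 1, 2 or 3.

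Ciart, a repressor also known as Chrono, was close to the limit of counting in Sham. It had 0.536, 0, 2.46 and 0.269 CPM in MI_stiff, 8.52, 5.63, 4.69 and 8.53 CPM in MI_soft, 3.38, 0.503, 2.06 and 1.09 CPM in MI, and 0.155, 0, 0.0776 and 0.158 CPM in Sham. The MI_soft levels stand for 114, 74, 71 and 102 reads. Those of Sham stand for 2, 0, 1 and 2 reads, under the 3 reads (0.233 to 0.284 CPM) that a count of 0 allows in those libraries. The fitted log2 differences from Sham, 2.91 ± 1.05 in MI_stiff, 5.95 ± 1.08 in MI_soft and 4.01 ± 1.05 in MI, therefore rest on 5 Sham reads in all and depend on the prior count of the fit. All MI_soft libraries were above all MI libraries, and MI_stiff 3 was the highest of MI_stiff. The MI_stiff difference was 1.34 without MI_stiff 3 and not called in either case. It was called without MI 2 (2.93) or MI_stiff 2 (3.34), without the 4 libraries of fewest genes (2.94), or with DESeq2 (3.02). Ciart is the member whose promoter window held 3 E-boxes, and a link between motifs and these levels was not tested.

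Nr1d1, the haem-sensing nuclear receptor REV-ERB alpha that represses Arntl, had 29.4, 65.7, 47.6 and 44.3 CPM in MI_stiff, 178, 147, 181 and 438 CPM in MI_soft, 190, 71.3, 84.6 and 28.2 CPM in MI, and 38.9, 58.5, 45.2 and 60.1 CPM in Sham. MI_soft stood above Sham and MI_stiff without overlap, MI_stiff overlapped Sham, and MI spanned from below the Sham range to above the lowest MI_soft library. The log2 difference from Sham was −0.12 ± 0.44 in MI_stiff, 2.22 ± 0.46 in MI_soft and 0.89 ± 0.44 in MI, which was not called. In MI it was 0.25 without MI 1, the highest MI library, and was called without MI 4 (1.18). It was also called without all 4 libraries of fewest genes (1.93), which leaves MI 1 as the lone MI library, assumed there to vary like the other groups. Nr1d1 overlaps Thra, the thyroid hormone receptor gene, in the GRCr8 annotation. No strand setting is stated for the counting, so reads from the shared stretch may be split between the pair.

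The D-box factors form the output arm. Dbp, an activator with one of the widest daily swings in rodent tissues, had 5.51, 6.03, 36.2 and 4.50 CPM in MI_stiff, 185, 175, 145 and 397 CPM in MI_soft, 175, 56.4, 48.9 and 31.6 CPM in MI, and 9.87, 10.2, 10.2 and 9.43 CPM in Sham. All MI_soft and MI libraries were above all Sham libraries. MI_stiff 1, 2 and 4 were below every Sham library while MI_stiff 3 was above them all. Dbp was 22.7-fold higher in MI_soft (log2 4.51 ± 0.68) and 7.86-fold higher in MI (2.97 ± 0.64) than in Sham. In MI_stiff the difference was 0.40 ± 0.61 with all libraries and −0.89 without MI_stiff 3, neither of them called. In MI it was 2.17 without MI 1, still called.

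Tef, a related activator, had 77.5, 93.5, 145 and 94.1 CPM in MI_stiff, 232, 188, 198 and 215 CPM in MI_soft, 168, 173, 199 and 114 CPM in MI, and 75.1, 98.9, 73.6 and 71.0 CPM in Sham. MI_soft and MI were above the Sham range, and MI_stiff overlapped it except in MI_stiff 3. The log2 difference from Sham was 0.36 ± 0.22 in MI_stiff, 1.39 ± 0.22 in MI_soft and 1.04 ± 0.22 in MI.

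Nfil3, the repressor at the same D-box, had 20.2, 19.6, 10.3 and 21.9 CPM in MI_stiff, 10.2, 10.3, 8.52 and 20.6 CPM in MI_soft, 13.2, 18.9, 9.57 and 19.7 CPM in MI, and 30.8, 22.7, 37.8 and 26.6 CPM in Sham. Every ligated library was below every Sham library, with the ligated groups overlapping. The log2 difference from Sham was −0.71 ± 0.32 in MI_stiff, −1.25 ± 0.32 in MI_soft and −0.94 ± 0.32 in MI. The call in MI was lost without MI 3, Sham 1 or Sham 3. The MI_stiff difference was not called. It was called with only MI_stiff and Sham in the fit (−0.70) or without the 4 libraries of fewest genes (−0.70).

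**Figure D2:**
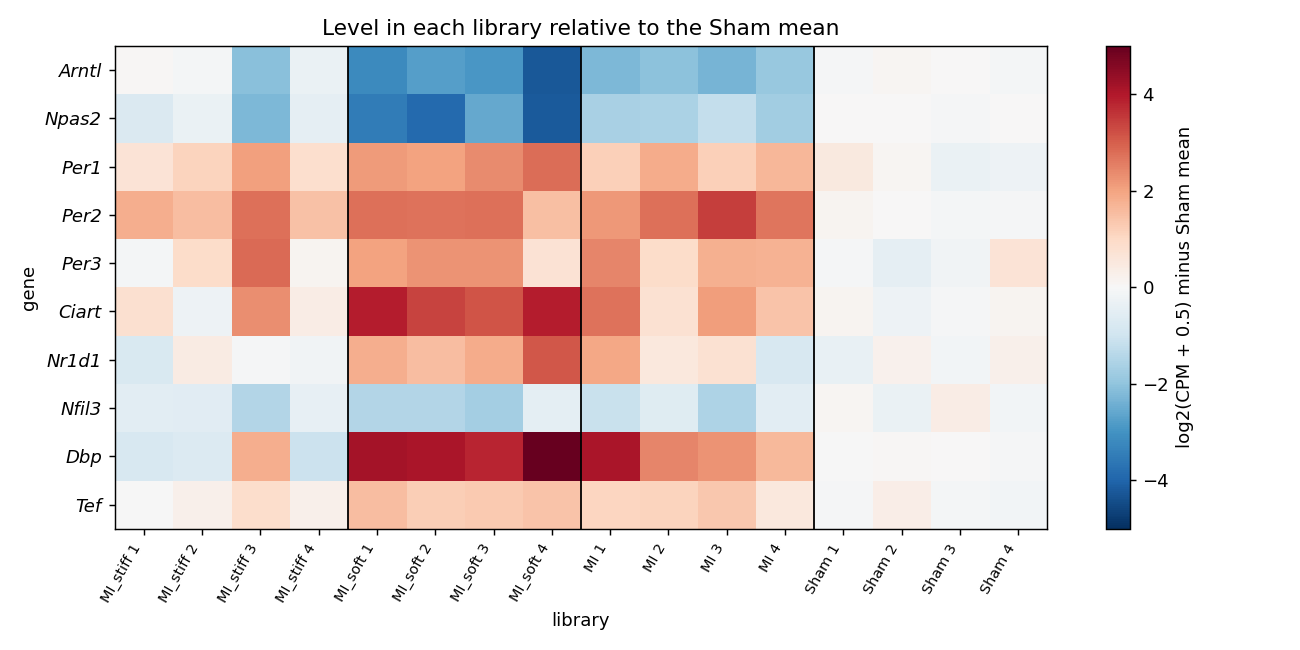
Level of each member in every library relative to the Sham mean, as log2(CPM + 0.5) minus the mean of the 4 Sham libraries, with a colour scale from −5 (blue) to 5 (red) and black lines between the groups. Arntl, Npas2 and Nfil3 are blue and the other 7 genes red in MI_soft, and MI_stiff 3 looks alike except for Nr1d1, which is near its Sham mean there. The other MI_stiff libraries are pale for most genes apart from Per2 (1.46 to 1.80).

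The 3 ligated groups were then set against each other, to describe the levels with either hydrogel beside ligation alone and beside each other. These genes cycle over the day and the hour of heart collection is not stated. Differences between groups or libraries therefore cannot be told apart from differences in hour. MI_stiff against MI_soft held most of the calls. Arntl (log2 2.87 ± 0.39, 7.33-fold) and Npas2 (2.82 ± 0.42, 7.05-fold) were called higher and Dbp (−4.11 ± 0.67, 17.2-fold lower) was called lower, 3 of the 10 genes, where 0.0615% of all tested genes were called higher and 0.0352% lower. By absolute difference Dbp ranked 10 among the 11376 genes, Ciart 27, Arntl 38, Npas2 42 and Nr1d1 86. The genes were selected on differences between these same groups. Nothing is therefore read from these ranks or from the counts called between ligated groups. Libraries of the 2 groups did not overlap for 6 members: Arntl and Npas2 were higher, as for 4.47% of all tested genes, and Nr1d1, Dbp, Tef and Ciart lower, as for 6.87%. Nr1d1 (−2.34 ± 0.46), Tef (−1.02 ± 0.22), Per1 (−1.11 ± 0.30) and Ciart (−3.04 ± 0.88) were not called in this comparison. Nr1d1 was called without MI 1, 3 or 4 or MI_soft 2, and Tef without MI 3 or MI_stiff 3. The call of Dbp was lost without MI_soft 4 or any 1 of MI_stiff 1, 2 or 4. With DESeq2 in place of edgeR 6 members were called, and with only these 2 groups in the fit 0 were.

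In MI_stiff against MI, Arntl was called higher (1.76 ± 0.37, 3.39-fold), 1 of the 10 genes, where 0.492% of all tested genes were called higher. The libraries of MI_stiff and MI overlapped for all 10 members, while 7.88% of all tested genes did not overlap. That call was lost without MI 2 or 4, MI_soft 1, MI_stiff 1, 2 or 4, or any 1 Sham library, 10 of the 16 fits that left out 1 library, with the difference between 1.56 and 2.07 in all 16. Dbp was 5.96-fold lower (−2.58 ± 0.63) and not called, but it was called without MI_stiff 3 (−3.86) or MI_soft 4 (−2.56), or with DESeq2. In MI_soft against MI 0 of 10 members were called by edgeR, where 0.0264% of all tested genes (3 genes) were called and where 1761 had p under 0.05 before adjustment. With DESeq2 the count was 1 member. The largest differences there were Npas2 at −2.04 ± 0.41, Ciart at 1.94 ± 0.84, Dbp at 1.53 ± 0.60 (95% interval 0.27 to 2.79) and Nr1d1 at 1.33 ± 0.45. Arntl and Npas2 lay wholly below MI and Per1 and Ciart wholly above it, non-overlaps that 1.69% and 2.55% of all tested genes also had. Without MI 1, 3 members were called, Npas2, Nr1d1 and Dbp, at log2 differences of −2.09, 1.93 and 2.29. Npas2 was also called without MI_soft 3 (−2.58) or MI_stiff 3 (−2.03). Without all 4 libraries of fewest genes, which leaves MI 1 alone in its group, the differences of Dbp and Nr1d1 were −0.060 and −0.18.

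**Figure D3:**
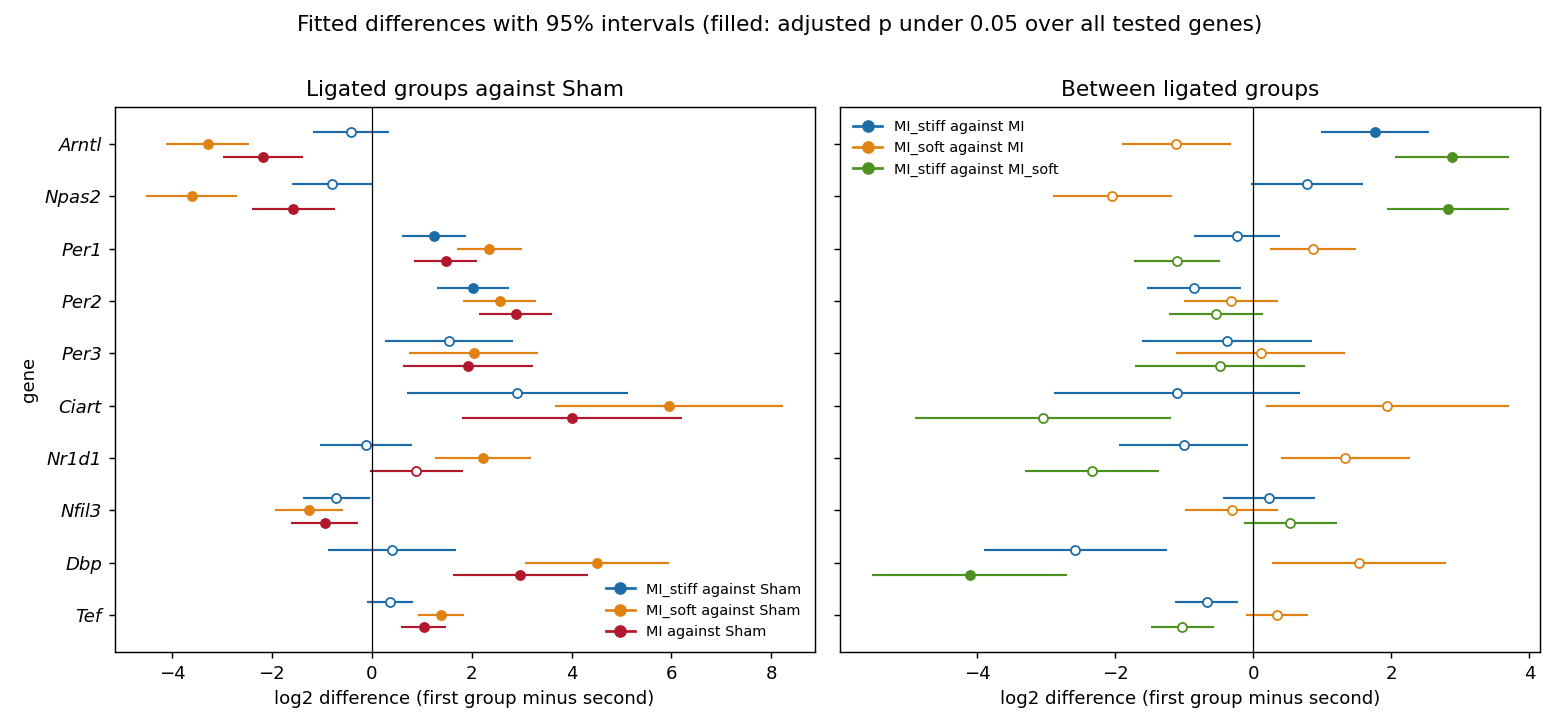
Fitted log2 difference of each member with its 95% interval, first group minus second, for the 3 ligated groups against Sham (left) and between ligated groups (right). Filled points were called at an adjusted p under 0.05 over all tested genes. On the left the MI_stiff points lie nearest to 0 for all 10 genes, and only those of Per1 and Per2, at 1.25 and 2.02, are filled.

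Levels of different genes were compared in TPM, which corrects for length. In MI_soft, Dbp led with 132 ± 34.6 TPM, then Nr1d1 with 96.7 ± 31.4 and Tef with 44.9 ± 11.1, while Npas2 was lowest at 0.593 ± 0.459. In MI, Dbp (57.1 ± 59.7), Nr1d1 (45.9 ± 45.9) and Tef (34.4 ± 13.1) led without differing beyond their spread. In MI_stiff, Tef (25.3 ± 10.1) and Nr1d1 (23.5 ± 7.66) were followed by Arntl (12.9 ± 5.87), Per1 (12.3 ± 6.76), Nfil3 (10.99 ± 4.18) and Dbp (9.88 ± 11.9), whose spreads overlap. In Sham, Nr1d1 (20.3 ± 3.69), Tef (15.5 ± 0.395), Nfil3 (14.8 ± 4.37) and Arntl (14.3 ± 1.21) stood above Npas2 (6.23 ± 0.784), Dbp (5.74 ± 0.748) and Per1 (4.14 ± 1.35), with Ciart lowest at 0.0925 ± 0.0723 (mean ± SD, n = 4 in each group). Arntl was thus of rank 3 among the 10 in MI_stiff, 9 in MI_soft, 7 in MI and 4 in Sham.

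The ratio of Dbp to Arntl in the same library sets an output of the activator beside the activator and needs no scaling between libraries. In TPM it was 0.217, 0.250, 6.402 and 0.277 in MI_stiff, 75.3, 50.5, 46.4 and 353 in MI_soft, 34.7, 9.21, 12.8 and 5.42 in MI, and 0.398, 0.370, 0.388 and 0.450 in Sham. The Sham libraries lay within 0.0801 of each other. MI_stiff 1, 2 and 4 lay below all of them, and MI_stiff 3 lay inside the MI range. The ratio of Per2 to Per1 ordered the groups otherwise, at 0.738 ± 0.159 in MI_stiff, 0.533 ± 0.244 in MI_soft, 1.18 ± 0.620 in MI and 0.438 ± 0.0820 in Sham (mean ± SD, n = 4).

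**Figure D4:**
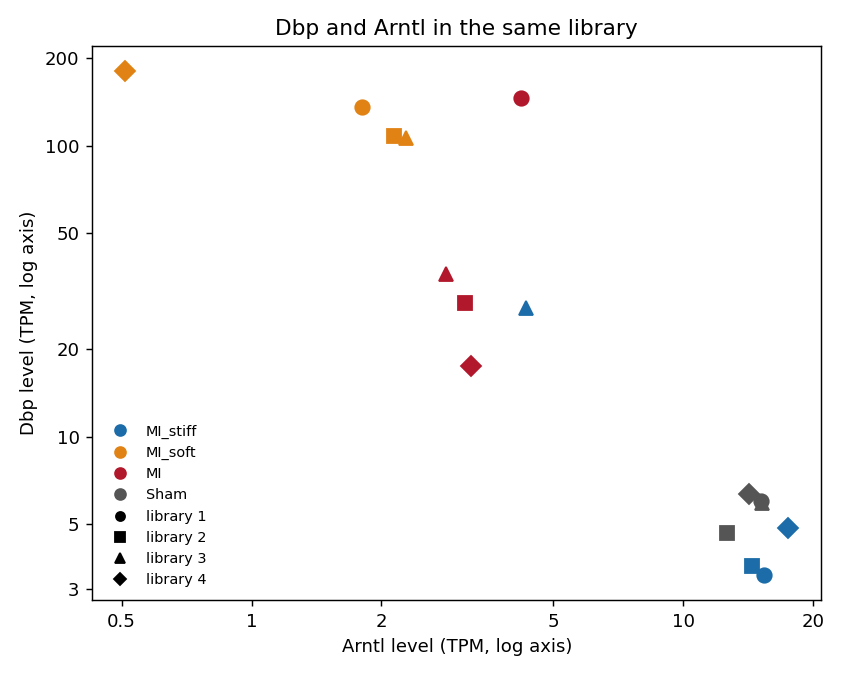
Dbp against Arntl in TPM, each point 1 library, with log axes. Colour gives the group and shape the library number. The Sham libraries and MI_stiff 1, 2 and 4 lie together at lower right with a Dbp to Arntl ratio of at most 0.450, MI_soft at upper left with a ratio of at least 46.4, and MI and MI_stiff 3 between them.

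A contrast within each library, the mean log2 CPM of Arntl, Npas2 and Nfil3 minus that of the other 7 genes, was 1.25, 1.21, −1.99 and 1.24 in MI_stiff, −3.68, −3.51, −3.18 and −4.05 in MI_soft, −2.16, −1.07, −1.79 and −0.88 in MI, and 1.91, 1.94, 2.21 and 1.78 in Sham. The groups did not overlap except that MI_stiff 3 lay within the MI range. The choice of genes fixes the direction of this contrast, so its separation is no sign of stability. Among MI_stiff libraries the SD of log2 CPM of Ciart, at 7, 0, 35 and 4 reads, was above that of 98.9% of tested genes. That of Per3 was above 97%, of Dbp above 96.8%, of Arntl above 91.6% and of Tef above 53.3%. Among Sham libraries the SD of Npas2 was above that of only 1.55% of tested genes, that of Dbp above 1.71% and that of Arntl above 6.07%. Other members went the other way, Per3 above 85.6%, Ciart above 82.8%, Per1 above 74.3%, Nfil3 above 64.4% and Nr1d1 above 62.4%. The median SD of the 10 was 0.77 in MI_stiff, 0.63 in MI_soft, 0.51 in MI and 0.26 in Sham, against 0.36, 0.50, 0.57 and 0.25 over all tested genes.

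MI_stiff 3 stood apart from the other MI_stiff libraries in these genes. It was the lowest MI_stiff library for Arntl, Npas2 and Nfil3 and the highest for 6 of the other 7 genes, all but Nr1d1, so that 9 of 10 members were extreme there, where 50.4% of all tested genes were. Across all genes its closest match was MI_stiff 4 (r = 0.9572), and it had 12784 genes detected. Without it, a split made after these values were seen, the MI_stiff libraries were all above Sham for Per1 and Per2, as for 22.6% of all tested genes, and all below it for Npas2, Nfil3 and Dbp, as for 22.2%, and they overlapped Sham for Arntl, Per3, Nr1d1, Tef and Ciart. Set against MI they were all above it for Arntl and Npas2, as for 5.08% of all tested genes, and all below it for Per1, Per2, Per3, Dbp and Tef, as for 4.88%. MI_soft 4 was extreme within MI_soft for 9 of 10 members as well, but there 83.6% of all tested genes were extreme.

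Summed cell type markers differed between groups for some cell types and overlapped for others. Summed over 10 cardiomyocyte markers, the level was 16029 to 28889 TPM in MI_stiff, 22596 to 31457 in MI_soft, 14527 to 26837 in MI and 33413 to 49626 in Sham, and no cardiomyocyte marker was at 0 in any library. Over 10 fibroblast markers it was 3554 to 6325 TPM in MI_stiff, 2934 to 5117 in MI_soft, 4094 to 7751 in MI and 763 to 1044 in Sham. The 9 macrophage markers with a row summed to 538 to 2981 TPM in MI_stiff, 1586 to 3157 in MI_soft, 297 to 1543 in MI and 84.6 to 130 in Sham. The 8 lymphocyte markers summed to 3.26 to 11.9 TPM in MI_stiff, 34.5 to 302 in MI_soft, 1.47 to 40.2 in MI and 2.35 to 7.61 in Sham, with up to 7 of them at 0 in an MI library. The 5 endothelial markers with a row summed to 140 to 235 TPM in MI_stiff, 128 to 134 in MI_soft, 177 to 208 in MI and 137 to 177 in Sham. The 6 markers of smooth muscle cells and pericytes with a row summed to 796 to 1252 TPM in MI_stiff, 1443 to 2111 in MI_soft, 666 to 2389 in MI and 856 to 1504 in Sham. That sum includes Des, called lower than Sham in MI_stiff, as were 8.44% of all tested genes. Tagln and Pdgfrb were called higher there, as were 12.7%. By these sums, cardiomyocyte markers were highest in Sham, and fibroblast and macrophage markers were higher in every ligated library than in Sham. Lymphocyte markers were highest in MI_soft, where they overlapped only with MI. Against Sham, 8 of the 10 cardiomyocyte markers were called lower in MI_stiff, 6 in MI_soft and 7 in MI. Of all tested genes 8.44%, 9.71% and 16.4% were. Myh7 went the other way and was called higher in MI_soft and MI, as were 16.4% and 20.2% of all tested genes. Other lists were also mixed in MI against Sham. Vwf was called higher and Cdh5 lower among endothelial markers. Among markers of smooth muscle cells and pericytes, Kcnj8, Tagln, Pdgfrb and Cnn1 were called higher and Rgs5 lower. The endothelial sums of all MI_soft libraries lay below those of every other library. In MI_stiff 3 the fibroblast sum was the lowest of its group at 3554 TPM and the endothelial sum the highest at 235 TPM, while its cardiomyocyte, macrophage, lymphocyte and smooth muscle sums lay inside the range of the other MI_stiff libraries. In bulk tissue fewer cells of a type and less RNA per cell cannot be told apart, and the part of these shifts in the clock gene values was not tested.

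**Figure D5:**
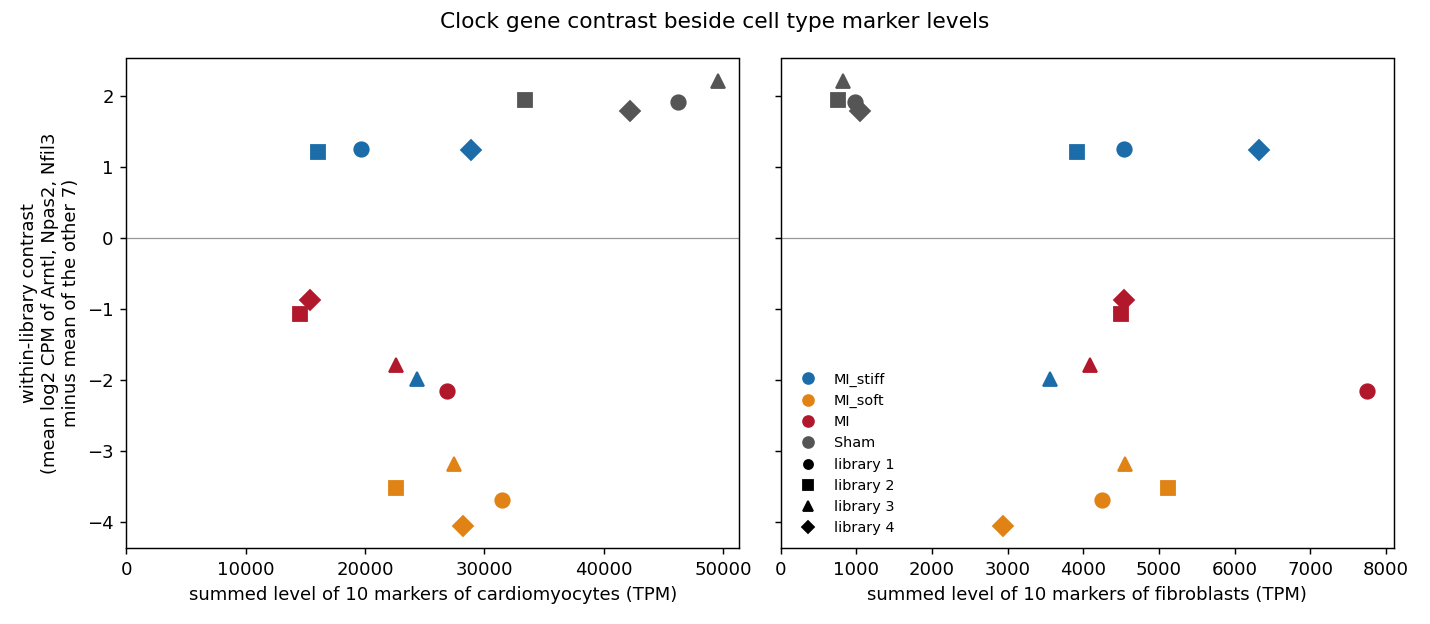
Within-library contrast of the clock genes (mean log2 CPM of Arntl, Npas2 and Nfil3 minus that of the other 7) against the summed TPM of 10 cardiomyocyte markers (left) and 10 fibroblast markers (right), each point 1 library. MI_soft lies lowest, at −4.05 to −3.18, and Sham lies highest, at 1.78 to 2.21, with the highest cardiomyocyte and the lowest fibroblast sums.

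Of 11 other genes of the core loop, 9 had a row and 7 were tested. In MI against Sham 0 of the 7 rose and 1 fell, in MI_soft against Sham 2 rose and 2 fell, and in MI_stiff against Sham 1 rose and 0 fell. Of all tested genes 36.6%, 26.1% and 21.2% were called in either direction in these comparisons, and with 1 library left out the list's count was 0 to 3 in MI, 1 to 4 in MI_soft and 0 to 2 in MI_stiff. Over the same 7 genes 0 were called by edgeR or DESeq2 between the ligated groups. With 1 library left out the count stayed 0 in MI_stiff against MI and in MI_stiff against MI_soft. In MI_soft against MI it was 0 to 1, with 1 gene called lower without MI 1, where 1508 of all 11528 tested genes were called. Unadjusted p was under 0.05 between the ligated groups for 1 gene in MI_stiff against MI, 1 in MI_soft against MI and 2 in MI_stiff against MI_soft. Clock, the usual partner of ARNTL, fell in MI against Sham (−3.35 ± 1.13, edgeR adjusted p = 0.0273) but held only 13 reads over the 4 MI libraries and 129 over the 4 Sham libraries, and the call was lost without MI 2, MI 3, Sham 1 or Sham 4. Cry1, a strong repressor of the loop, fell in MI_soft against Sham, with 12.7 ± 5.72 CPM against 34 ± 6.69 CPM (−1.42 ± 0.39, edgeR adjusted p = 0.0117). Cry2 rose in the same comparison, with 67.3 ± 5.72 CPM against 47.5 ± 6.05 CPM (0.50 ± 0.15, edgeR adjusted p = 0.0213), a call lost without MI_soft 1 or any 1 of Sham 1, 2 or 4. Arntl2, a paralog of Arntl, had 39 reads over the 4 MI_stiff libraries and 37 over the 4 MI_soft libraries, against 1 over the 4 Sham libraries, with edgeR adjusted p = 0.0353 and 0.0297, and both calls were lost without Sham 1, 3 or 4, that of MI_stiff also without MI_stiff 1, 3 or 4 and that of MI_soft without MI_soft 2 or 4.

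Enzymes and cofactors that set the stability of clock proteins were represented by 16 genes, of which 11 were tested, and those called were all lower. In MI against Sham 4 of 11 fell, in MI_soft 3 and in MI_stiff 1, where 16.4%, 9.71% and 8.44% of all tested genes were called lower. Usp2, a deubiquitinase that is itself a clock output in mice, averaged 17.3 ± 4.19 CPM in MI_stiff, 26.1 ± 5.71 in MI_soft, 13.2 ± 11.1 in MI and 40.2 ± 3.96 in Sham. It fell in MI (−1.59 ± 0.40, edgeR adjusted p = 0.0049) and in MI_stiff (−1.22 ± 0.39, edgeR adjusted p = 0.034), and its call in MI_stiff was lost without MI_stiff 1, 2 or 4 or any 1 Sham library. Gsk3b, a kinase of PER and NR1D1, fell in MI_soft (−1.19 ± 0.41, edgeR adjusted p = 0.0425) and in MI (−1.89 ± 0.42, edgeR adjusted p = 0.00244) against Sham. Fbxw7, a ubiquitin ligase subunit that targets NR1D1, fell in the same comparisons (−2.30 ± 0.73 and −2.40 ± 0.73, edgeR adjusted p = 0.0279 and 0.017).

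Clock output genes of the heart and other rodent tissues gave 15 tested genes of 17 listed. Against Sham, 2 rose and 1 fell in MI_stiff, 3 rose and 1 fell in MI_soft, and 4 rose and 3 fell in MI, where 21.2%, 26.1% and 36.6% of all tested genes were called in either direction. The list's shares in MI_stiff and MI_soft lie near those, and its share in MI was not tested against them. None of these counts is read as a result about these genes. Tspan4, a tetraspanin, rose in all 3, averaging 64.2 ± 11.48 CPM in MI_stiff, 113 ± 38.9 in MI_soft, 99.97 ± 36.7 in MI and 12.7 ± 1.21 in Sham (edgeR adjusted p = 1.63e-05, 7.78e-07 and 1.09e-06). Rbm3, a cold-inducible RNA-binding protein, rose in MI_stiff (1.57 ± 0.28, edgeR adjusted p = 0.000621) and in MI (1.52 ± 0.28, edgeR adjusted p = 0.000465). Cirbp, its relative, fell in MI_soft against MI, with 16.9 ± 2.79 CPM against 47.8 ± 11.9 CPM (−1.50 ± 0.23, edgeR adjusted p = 0.0316), 1 of the 3 genes called in that comparison over the whole table. That call was lost without MI 2, 3 or 4, MI_soft 1, 3 or 4, MI_stiff 1 or any 1 Sham library.

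Glucocorticoid is a systemic signal that resets tissue clocks and induces Per1, and 8 of 12 listed responsive genes were tested. Against Sham, 3 rose and 0 fell in MI_stiff, 2 rose and 0 fell in MI_soft, and 5 rose and 1 fell in MI, where 12.7%, 16.4% and 20.2% of all tested genes were called higher and 8.44%, 9.71% and 16.4% lower. Fkbp5, a co-chaperone of the glucocorticoid receptor, rose in all 3, averaging 89.8 ± 11.01 CPM in MI_stiff, 128 ± 39.0 in MI_soft, 79.1 ± 21.7 in MI and 35 ± 7.41 in Sham (edgeR adjusted p = 0.000934, 5.38e-05 and 0.00168). Mt2A, a metallothionein, also rose in all 3, at log2 differences of 5.65 ± 0.62, 5.06 ± 0.61 and 4.68 ± 0.60 in MI_stiff, MI_soft and MI (edgeR adjusted p = 9.32e-06, 1.43e-05 and 1.87e-05). Klf9, a transcription factor that follows glucocorticoid in rodents, fell in MI (−2.19 ± 0.69, edgeR adjusted p = 0.0194). Between the ligated groups 1 gene of the list was called. Dusp1, a phosphatase of MAP kinases, fell in MI_stiff against MI, with 83.7 ± 7.63 CPM against 182 ± 33.3 CPM (−1.12 ± 0.21, edgeR adjusted p = 0.0191), where 0.694% of all tested genes were called lower, and that call was lost without MI 2 or any 1 of MI_stiff 2, 3 or 4.

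Genes whose levels were most like the contrast of the clock genes were found by Pearson's r over the 16 libraries, which fall into groups, so r describes likeness only. Ucp3, a mitochondrial carrier of muscle, came first (r = 0.917, Spearman's rho = 0.885), followed by Dyrk2 (r = 0.860, rho = 0.900), Nudt4 (r = 0.859, rho = 0.906), Naa40 (r = 0.855, rho = 0.888) and Cycs, cytochrome c (r = 0.847, rho = 0.765). Opposite to the contrast were Fads2, a fatty acid desaturase (r = −0.915, rho = −0.935), Bcl2l1 (r = −0.893, rho = −0.871), Ccl19 (r = −0.880, rho = −0.897) and a pair of rows with identical counts, Wdr62 and NEWGENE_1306714 (r = −0.869, rho = −0.841). Without Sham 3 and MI_soft 4, the libraries farthest from the median, r was 0.889 for Ucp3 and −0.887 for Fads2. With each group's mean taken off, none of these was among the 5 closest genes. The closest were then Ppa1 and Sar1a, which had identical counts (r = 0.869, rho = 0.800), Lmcd1 (r = 0.838, rho = 0.709), RGD1561381 (r = 0.826, rho = 0.750) and Ppic (r = 0.823, rho = 0.735), and the most opposed was Paqr9 (r = −0.835, rho = −0.558). Without MI_stiff 3 and MI_stiff 1, the libraries then farthest from the median, r was 0.769 for Ppa1, 0.603 for Lmcd1 and −0.787 for Paqr9. Among the 7 other loop genes tested, Cry2 (r = −0.818) and Cry1 (r = 0.716) were closest over the 16 libraries, and with group means off they were at r = −0.0019 and 0.288.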

How the data were processed

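Bulk RNA sequencing covered 16 libraries in 4 groups of 4, grouped by the labels. The authors deposited expected counts per gene, which need not be whole, and TPM, which corrects for gene length and depth. Per the submitters' processing notes, STAR 2.7.3a, RSEM 1.3.1 and genome build rn7 were used. Neither annotation nor strand setting is stated. Rounding to whole numbers changed 0.785% of the deposited values. edgeR 4.0.16 in R 4.3.3 filtered low counts by group (11376 of 17085 genes kept), scaled with TMM and fitted its quasi-likelihood test with robust estimation on all 16 libraries, with Benjamini-Hochberg adjustment over all tested genes. The contrast used log2 CPM with a prior count of 2. The common biological coefficient of variation was 0.403. Identical counts in every library joined 483 tested genes to some other gene, 0 of them members. Scripts were tested on simulated data.

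Alternatives were DESeq2 1.42.0, RLE factors, no filter, only the groups compared, a replicate block, leaving out each library, and leaving out the 4 libraries with the fewest genes. The members and the gene lists were chosen with earlier results of these data known. All members were named, and of the lists genes called in a comparison, larger differences first. The 5 genes of highest and of lowest r with the contrast were named, with and without group means. Promoter sequences are RefSeq's for GRCr8 and were not used for counting. Some list genes that were counted are not reported here by name.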

Additional observations from a re-analysis of the deposited data

Results flagged for a closer look

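In 7 of the 40 sets of 4 libraries (10 genes in 4 groups), the highest or lowest library stood apart from the other 3, the share of the range taken by its gap exceeding Dixon's 95% critical value. Chance alone gives about 1 in 20 such sets, and over all tested genes 5.78% were past that value in MI_stiff, 12.9% in MI_soft, 8.55% in MI and 6.4% in Sham. The sets of 1 group share their 4 libraries and are not independent. Within MI_stiff, MI_stiff 3 stood apart for Dbp at 36.2 CPM, against 4.50 to 6.03 CPM in the other 3 libraries, and for Per3 at 21.7 CPM, against 2.37 to 5.31 CPM. Within MI_soft, MI_soft 4 was highest for Dbp at 397 CPM (the others 145 to 185 CPM), for Nr1d1 at 438 CPM (147 to 181 CPM) and for Nfil3 at 20.6 CPM (8.52 to 10.3 CPM), and lowest for Per2 at 37.0 CPM (85.1 to 88.6 CPM). MI_soft 4 was the highest or lowest of its group for 83.6% of all tested genes. Within Sham, Sham 2 was highest for Tef at 98.9 CPM (71.0 to 75.1 CPM).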

How the results depend on the processing

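Over the alternatives, 1242 of 1317 recomputed member differences kept their direction and their side of the threshold, 34 lost a call, 31 gained one and 10 changed sign, none of them called. Those with changed sign were, in MI_stiff against Sham, Nr1d1 without MI_stiff 1 (range −0.31 to 0.051 with 1 library left out) and Dbp without MI_stiff 3 (range −0.89 to 0.67); in MI_soft against MI, Per3 without MI 2, MI_soft 2 or MI_soft 3 (range −0.10 to 0.41); and, without the 4 libraries with the fewest genes, Per2 (0.58), Per3 (−0.30), Nr1d1 (−0.18) and Dbp (−0.060) in MI_soft against MI and Per1 (0.085) in MI_stiff against MI. The causes were not tested.

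The number of members called was 7 to 10 for MI against Sham, 9 to 10 for MI_soft and 2 to 3 for MI_stiff when 1 library was left out. For MI_stiff against Sham it was 4 with DESeq2 and 4 without the 4 libraries. For MI_soft against MI it was 1 with DESeq2 and 0 to 3 with 1 library left out. For MI_stiff against MI it was 2 with DESeq2, 0 with only those groups, 0 with the replicate block and 0 to 2 with 1 left out. For MI_stiff against MI_soft it was 6 with DESeq2, 0 with only those groups, 1 with the replicate block, 5 without the 4 libraries and 2 to 5 with 1 left out (5 without MI 3). Among the list genes, the MI calls of Clock, Usp2, Wee1, Cirbp, Bdh1 and Fkbp5 against Sham were lost without the 4 libraries, as was that of Npas2.

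All genes called moved as well. MI_soft against Sham had 2965, and 4455 without the 4 libraries, MI_stiff against Sham had 2410, 4523 with only those groups and 4986 without the 4 libraries, and MI_soft against MI had 3, 267 with DESeq2, 0 with only those groups, 0 with the block and 11 without the 4 libraries. MI_stiff against MI had 135 (56 higher, 79 lower), 586 with DESeq2 (317 higher, 269 lower), 82 with no filter, 13 with only those groups, 34 with the block and 215 without the 4 libraries. MI_stiff against MI_soft had 11, 260 with DESeq2, 3 with the block and 243 without the 4 libraries. With 1 library left out the ranges were 3310 to 5053 for MI, 2155 to 3375 for MI_soft and 1690 to 3220 for MI_stiff against Sham, 0 to 1508 for MI_soft against MI, 11 to 1253 for MI_stiff against MI and 4 to 57 for MI_stiff against MI_soft. MI 1 gave the highest count in both comparisons with MI among the ligated groups when left out.

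The replicate numbers did not pair the libraries: deviations of 24 same-number pairs correlated between −0.285 and 0.176, with 5 above 0.1. Ciart at a few reads limits what its differences can show.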
